A study of Bos taurus with 6 samples.

Results

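Cytosolic ribosomal protein genes were examined in intramuscular fat (IMF), the fat lying between the fibres of a muscle, from castrated and intact male Qinchuan cattle. The members were the genes of the mRNA count table whose symbol is RPL or RPS followed by a number and at most 1 of the letters X, A and L, together with RPSA, RPLP0 and RPLP1. This gave 76 of the 25444 genes, of which 42 belong to the large subunit, 32 to the small subunit and 2 to the P stalk, and all 76 symbols are also RefSeq symbols of cattle genes. RPLP2, RPL7, RPL39 and RPL41 were not analysed here.

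The mRNA was sequenced in 2 libraries, titled CM for castrated males (steers) and IM for intact males (bulls). Both groups were Chinese Qinchuan males weaned at 3 months and slaughtered at 24 months, with the same diet, and the IMF was dissected from the sternomandibularis muscle. The steers differed in having been castrated surgically at 6 months. Each library was 1 pool of RNA, from 6 animals per group according to the series design and the paper and from 3 according to the sample descriptions, and the study states that the animals came from the same sire.

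Ribosomal proteins assemble with ribosomal RNA into a small subunit, which reads the mRNA, and a large subunit, which joins the amino acids. A ribosome holds about equal numbers of most of these proteins, and their mRNAs carry a terminal oligopyrimidine (TOP) tract at the 5′ end through which the kinase mTOR and the protein LARP1 control their translation together. Their genes are active in every cell type, and for that reason several of them are used as references in qRT-PCR.

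RPS18, a small subunit member, was such a reference in the study's own qRT-PCR, beside ACTB. Its primers, listed by the study for its expression assays, are shown because every value scaled to this gene rests on them. Nothing is marked by capitals.

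RPS18 sense: gtggtgttgaggaaagcagaca
RPS18 antisense: tgatcacacgttccacctcatc

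RPS18 itself had 16124 counts in the steer pool and 12073 in the bull pool, giving a log2 fold change of 0.30 (interval 0.26 to 0.33). ACTB, the other reference, had 32068 and 23894 counts and also a log2 fold change of 0.30 (0.28 to 0.33). Both references were thus higher in steers by the same amount after the scaling used here. With scaling by library totals instead, RPS18 was at 0.06, and ACTB shifts alike. Every fold change is steers over bulls after scaling with median-of-ratios size factors, which were 1.04 for steers and 0.959 for bulls. The interval after each is a 95% Clopper-Pearson interval that covers counting error only, not the spread between animals. It treats reads as independent molecules, which they are not, so it may be too narrow even for counting error.

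The libraries held 12677375 counts in steers and 9868415 in bulls. With 1 library per group, neither the spread between animals nor a difference between conditions could be tested, and every call below compares these pools alone. A gene was called when an exact binomial test (two-sided) gave an adjusted p under 0.05 and the absolute log2 fold change exceeded 1. The defining markers of fat were present: the 11 adipocyte markers in the table summed to 3445.5 CPM (counts scaled to the library total) in steers and 4073.3 CPM in bulls, with none at 0 in both. CPM rests on library totals and the fold changes on the size factors, so CPM sums and fold changes are not directly comparable. Markers of several other cell types differed between the pools. Over 8 fibroblast markers the CPM values summed to 92790.0 in steers and 56822.8 in bulls, and 2 of them were called upregulated. The collagen genes COL1A1, COL1A2 and COL3A1 held most of these counts, and the list was mixed. By log2 fold change 6 of the 8 were above 0, DCN only at 0.04, while PDGFRA was at -0.48 and MFAP5 at -0.01. Over 11 T lymphocyte markers the sums were 8.91 and 101.8, with all 11 called downregulated. The 10 myeloid markers in the table summed to 1624.3 and 4393.4, and 8 were called downregulated. The 13 skeletal muscle markers in the table summed to 2899.4 and 5426.2, and none of the markers of these 4 lists was at 0 in both libraries. In bulk tissue fewer cells of a type cannot be told apart from less RNA per cell.

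Ribosomal protein mRNA took nearly the same portion of both libraries. The members held 786888 counts in steers, 6.21% of the total (interval 6.194% to 6.22%), and 614058 counts in bulls, 6.22% (6.207% to 6.238%). The ratio of these shares was 0.9975. Large subunit genes took 2.77% in steers and 2.71% in bulls, and small subunit genes 2.86% and 2.89%. The P stalk genes took 0.573% and 0.619%. Collagens and other matrix genes make up most of the 10 genes with the most counts, which took 18.5% of the steer library and 12.9% of the bull library. Outside those 10 genes the ribosomal protein share was 7.62% in steers and 7.14% in bulls.

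**Figure D1:**
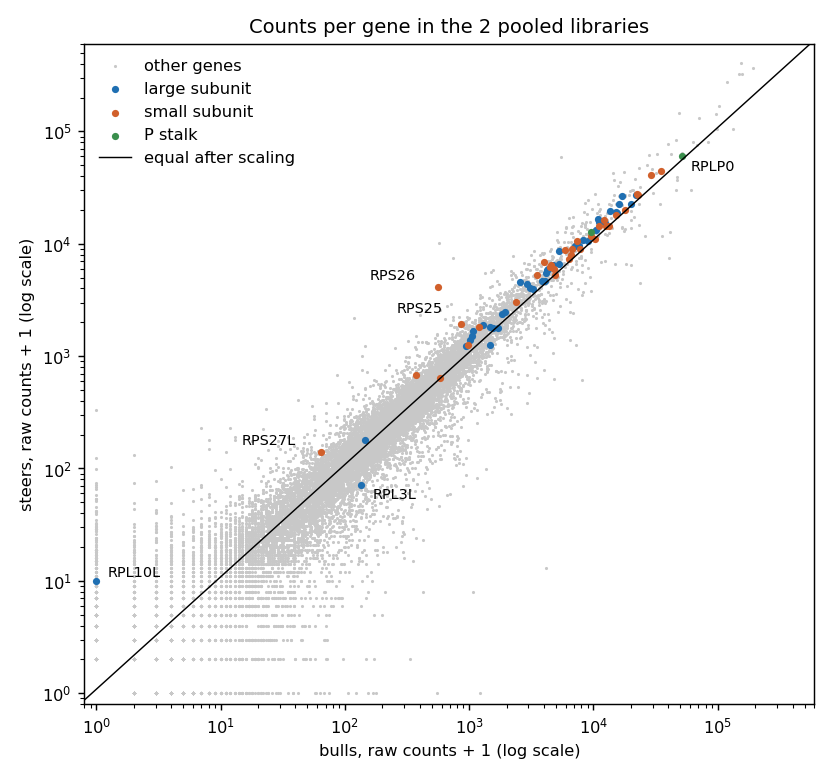
Raw counts of each gene with a count in either library, plus 1, in bulls (x axis) and steers (y axis), on log scales. Coloured points are ribosomal protein genes by subunit, grey points are other genes, and the line marks equal levels after scaling. The ribosomal protein genes lie in a narrow band along the line, except RPS26, RPS25, RPS27L, RPL3L and RPL10L.

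The members had a median log2 fold change of 0.25 with the size factors, and 0.01 with scaling by library totals. Total counts moved the median of all 17752 tested genes from 0.01 to -0.23, so the median member lay about 0.24 above the median gene under either scaling. A scaling shifts every gene alike, so this distance could not change. Against the 3188 genes with at least 1000 counts over both libraries, whose median was 0.14, the median member lay 0.10 higher. The fold change was above 0 for 70 of the 76 members (92.1%), compared with 50.7% of all tested genes and 64.6% of genes with at least 1000 counts. With total counts 39 members were above 0, since every value falls by 0.24 and any gene named here with a smaller log2 fold change above 0 turns negative.

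**Figure D2:**
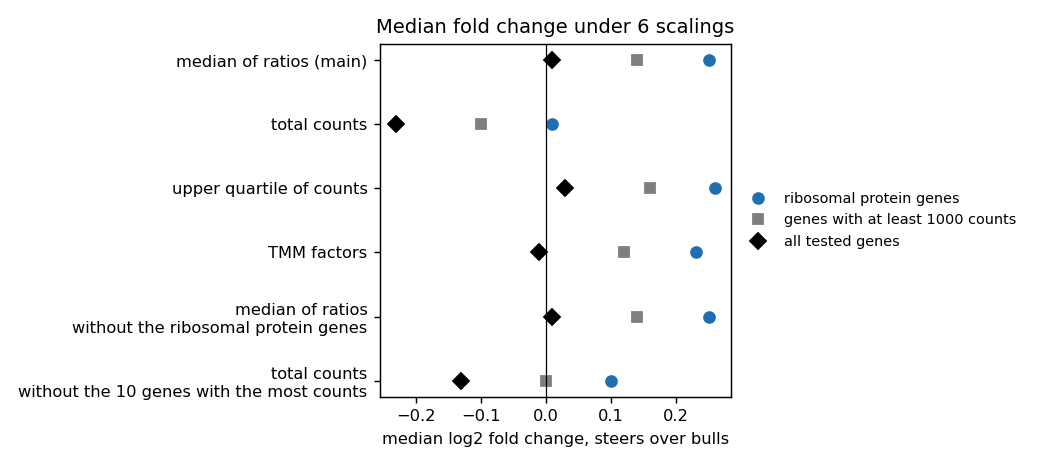
Median log2 fold change, steers over bulls (x axis), of the ribosomal protein genes, of genes with at least 1000 counts and of all tested genes, under each of the 6 scalings (y axis). Each scaling shifts every gene by the same amount, so the distances between the medians cannot change. The median of the ribosomal protein genes is above the others, from 0.26 with the upper quartile to 0.01 with total counts.

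The fold changes of the members were close to each other. The interquartile range was 0.24 for the members, 0.51 for genes with at least 1000 counts and 0.98 for all tested genes. Of the 76 members, 60 lay within 0.25 of the median member. A log2 fold change above 0.5 was found for 10 members (13.2%), compared with 23.1% of all tested genes and 16.7% of genes with at least 1000 counts. One below -0.5 was found for 1 member (1.32%), compared with 25.7% and 9.22%. Large and small subunit genes had like medians, 0.26 and 0.23, with interquartile ranges of 0.20 and 0.30.

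The counts of the members ranged from 9 to 59854 in steers and from 0 to 51563 in bulls. The order of the members by count was almost the same in both libraries (Spearman rho 0.986 over the 75 members with a count in both, whose lengths and gene models are shared). The 5 members with the most counts held 25.4% of all member counts in steers and 26.2% in bulls. These counts are not divided by transcript length, so they give no order of expression levels among the genes.

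Even so, the spread among the members was wider than counting error. The counting intervals reached a median of 0.05 to either side, and the interval lay above the median member for 31 genes, below it for 30 and across it for 15. By the adjusted p of the exact binomial test alone, without the fold threshold, 66 members were higher and 2 lower in steers. This was with the size factors, compared with 20.4% and 18.9% of all tested genes. With total counts only 39 members were above 0 at all. Most members have so many counts that small differences pass such a test. With the fold threshold, 4 members were called upregulated (5.26%, background 4.66%) and 1 was called downregulated (1.32%, background 8.50%). The remaining 71 members were not called.

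**Figure D3:**
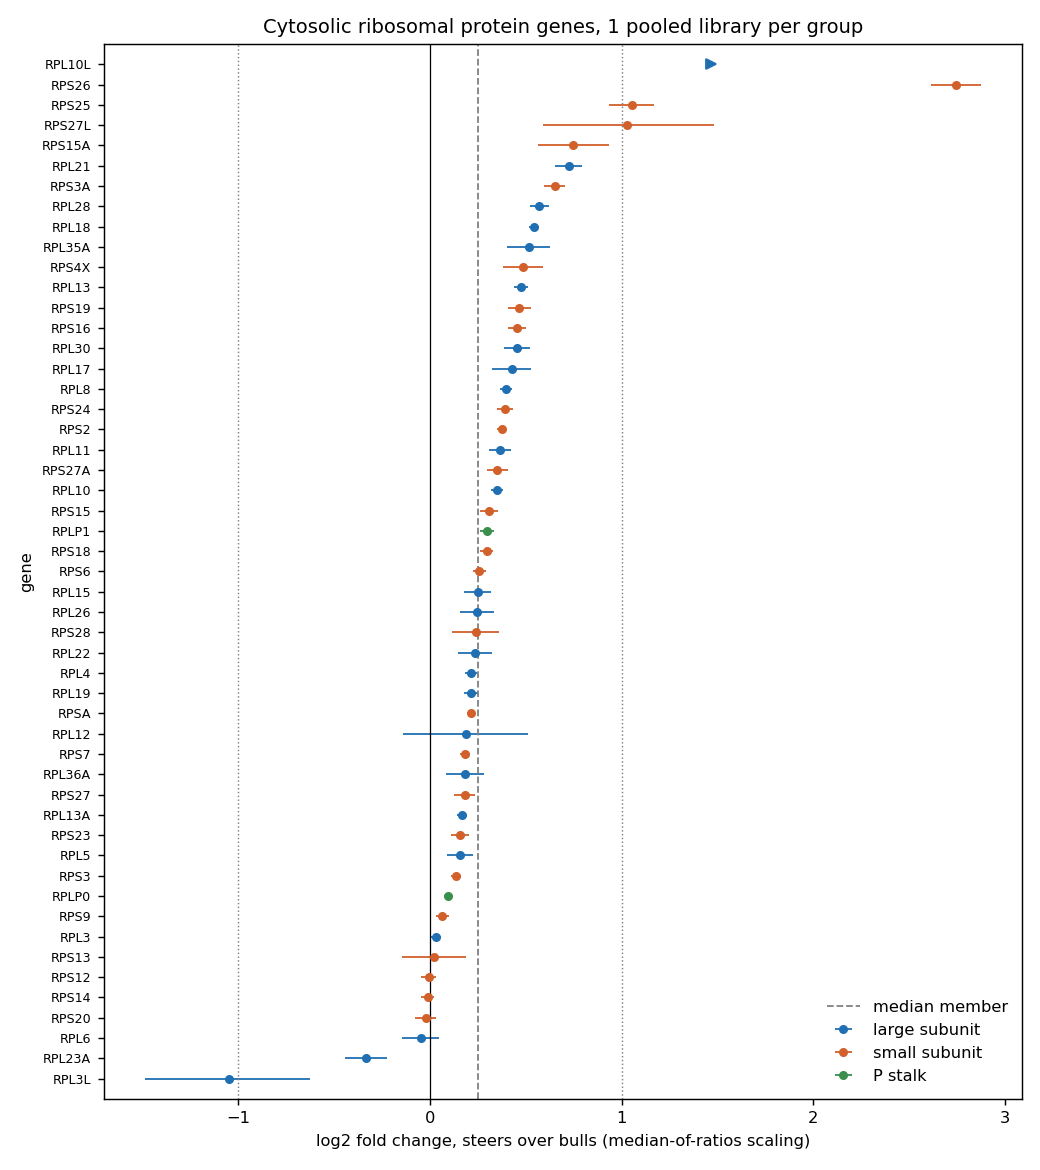
Log2 fold change, steers over bulls (x axis), of the ribosomal protein genes named in the text (y axis, in order), with its 95% counting interval and coloured by subunit. The triangle is the lower bound of RPL10L, which had 0 counts in bulls, the dashed line is the median member at 0.25 and the dotted lines mark the fold threshold. RPS26 stands apart at 2.74, and RPL3L and RPL23A are the lowest, at -1.05 and -0.33.

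RPS26, a small subunit protein at the site where mRNA leaves the ribosome, differed far more than any other member with counts in both pools. It had 4119 counts in the steer pool and 565 in the bull pool, giving a log2 fold change of 2.74 (2.62 to 2.87) or 6.70-fold. In CPM this was 324.9 and 57.3. Relative to the median member it was 5.65-fold higher in steers. The call was made under all 6 scalings, with a lowest log2 fold change of 2.50 for total counts. It was also made by an edgeR exact test that assumed a biological coefficient of variation of 0.1 or 0.2 between pools, but not with 0.4. The coding genes next to RPS26 in RefSeq's order were not called. ERBB3 had 68 and 58 counts, giving a log2 fold change of 0.11 (-0.42 to 0.64). IKZF4 had 48 and 36 counts and 0.29 (-0.36 to 0.96). Neither the scalings nor these neighbours bear on how reads shared between gene copies were assigned, which was not tested for RPS26.

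RPS25, a small subunit protein needed for initiation at several internal ribosome entry sites, was called upregulated close to the threshold. It had 1947 counts in the steer pool and 863 in the bull pool, giving a log2 fold change of 1.05 (0.94 to 1.17). With total counts the value was 0.81, and RPS25 was not called. Its nearest coding neighbours with a row in the table, BCL9L at 0.06 (-0.09 to 0.21) and TRAPPC4 at -0.17 (-0.51 to 0.17), were not called.

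Below the fold threshold, 5 more members lay at least 0.54 above 0. RPS15A had 681 and 373 counts, giving a log2 fold change of 0.75 (0.56 to 0.93). RPL21 had 4595 and 2555 counts and 0.72 (0.65 to 0.79). RPS3A, another protein at the mRNA exit site, had 6852 and 4011 counts and 0.65 (0.59 to 0.71). Each was higher in steers under all 6 scalings, as were the large subunit genes RPL28 and RPL18. RPL28 had 8591 and 5318 counts, giving a log2 fold change of 0.57 (0.52 to 0.62). RPL18 had 26875 and 16958 counts and 0.54 (0.51 to 0.57).

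At the low end stood RPL23A, which sits at the mouth of the exit tunnel where the signal recognition particle docks. It had 1262 counts in the steer pool and 1460 in the bull pool, giving a log2 fold change of -0.33 (-0.44 to -0.22), which is 0.58 below the median member. It was below 0 under each scaling. The next members, RPL6, RPS20, RPS14 and RPS12, lay between -0.05 and -0.01, and their intervals held 0.

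RPL3L, RPL10L and RPS27L are paralogs that replace or accompany a standard ribosomal protein in particular cells or states, and each of them was called. RPL3L takes the place of RPL3 in striated muscle. It had 71 counts in the steer pool and 135 in the bull pool, giving a log2 fold change of -1.05 (-1.48 to -0.62), and was the member called downregulated. RPL3 had 22461 and 20203 counts and 0.03 (0.00 to 0.06), so that RPL3L counts were 0.316% of those of RPL3 in steers and 0.668% in bulls. The 13 skeletal muscle markers were mixed: their median log2 fold change was -0.65, 5 were above 0, MYH7, TNNT1 and DES were called downregulated and MYH1 was called upregulated. The slow fibre myosin gene MYH7 had 675 and 2906 counts, giving a log2 fold change of -2.23 (-2.35 to -2.11). The part of muscle RNA in the value of RPL3L was not tested. Of the coding genes on either side of RPL3L with a row in the table, NDUFB10 was at 0.38 (0.25 to 0.51) and HS3ST6 had only 0 and 4 counts and was not called.

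RPS27L, a close relative of RPS27 and a target of p53, had 140 counts in the steer pool and 63 in the bull pool. Its log2 fold change was 1.03 (0.59 to 1.48), compared with 0.18 (0.13 to 0.24) for RPS27, which had 5969 and 4837 counts. With total counts RPS27L was at 0.79 and was not called. Of its coding neighbours, RAB8B was at -0.40 (-0.69 to -0.11) and LACTB, with 17 and 35 counts, was called downregulated, so the genes on either side did not move with RPS27L. RPL10L, a copy of RPL10 known from the testis, had 9 counts in the steer pool and 0 in the bull pool, which is at least 2.76-fold higher in steers if the bull library is set to a floor of 3 counts. RPL10 had 22399 and 16152 counts, giving a log2 fold change of 0.35 (0.32 to 0.38), so RPL10L counts were 0.0402% of those of RPL10 in steers. With a filter of at least 20 counts over both libraries RPL10L was not tested, which left 3 members called upregulated. Near-identical copies can share reads, so the values of these pairs are uncertain. How multiply mapped reads were assigned is not given in the sources used here. That limit holds for the other members too, RPS26 and RPS25 among them, and its part in their values was not tested.

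Of the other copies, which are not members, RPL22L1 was at 0.19 (-0.15 to 0.53) beside RPL22 at 0.24, and RPL26L1 at 0.03 (-0.25 to 0.31) beside RPL26 at 0.24. RPL36AL was at 0.12 (0.05 to 0.19) beside RPL36A at 0.18. RPL15P, a pseudogene in RefSeq, had 1320 counts in the steer pool and 830 in the bull pool, 32.9% and 26.8% of the counts of RPL15, and a log2 fold change of 0.55 (0.42 to 0.67) beside 0.25 (0.18 to 0.32) for RPL15. Whether reads of RPL15 were assigned to the pseudogene was not tested.

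The P stalk recruits elongation factors to the large subunit. RPLP0, its base and the member with the most counts, had 59854 counts in the steer pool and 51563 in the bull pool, giving a log2 fold change of 0.09 (0.08 to 0.11) that turned to -0.15 with total counts. RPLP1 had 12776 and 9548 counts and 0.30 (0.26 to 0.34). The intervals of these stalk genes do not overlap.

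Around the mRNA path, RPS2 and RPS3 line the entry. RPS2 had 41025 and 29095 counts, giving a log2 fold change of 0.37 (0.35 to 0.40). RPS3 had 27263 and 22782 counts and 0.14 (0.11 to 0.16), and it turned to -0.10 with total counts. The decoding region proteins RPS15 and RPS23 were at 0.31 and 0.16. At the mRNA exit, RPS26 and RPS3A were above the median member and RPS14 was below it, while the interval of RPS28 held it. Over 7 proteins at the rim of the exit tunnel the range was -0.33 for RPL23A to 0.43 for RPL17, with a median of 0.24. These places were assigned from general knowledge after the values had been seen.

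RPL5 and RPL11 bind the small ribosomal RNA of the large subunit and inhibit MDM2 when ribosome assembly fails. RPL5 had 3957 and 3260 counts, giving a log2 fold change of 0.16 (0.09 to 0.22), and RPL11 had 5890 and 4203 counts and 0.36 (0.31 to 0.42). RPSA, which is also known as a laminin receptor, had 44293 and 35133 counts and 0.21 (0.19 to 0.23), turning to -0.03 with total counts. RPS7 had 27523 and 22274 counts and 0.18 (0.16 to 0.21), turning to -0.06 with total counts. RPS6, the substrate of the S6 kinases, had 14473 and 11118 counts and 0.26 (0.22 to 0.29), within counting error of the median member. RPS27A, made as a fusion with ubiquitin, had 6176 and 4446 counts and 0.35 (0.30 to 0.41). RPS4X, encoded on the X chromosome, had 1823 and 1197 counts and 0.48 (0.38 to 0.59).

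Several members are known as the genes mutated in Diamond-Blackfan anaemia, a failure of red cell formation, and RPS26, RPL5, RPL11, RPS7 and RPL35A are among them. RPS19, the gene most often affected, had 5322 and 3538 counts and 0.47 (0.41 to 0.53). RPS24 had 10513 and 7362 counts and 0.39 (0.35 to 0.43), and RPL35A had 1656 and 1065 and 0.51 (0.40 to 0.63). Apart from RPS26, the genes named here ran from 0.16 for RPL5 to 0.51 for RPL35A, within the span of the other members.

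Among the large subunit genes with many counts, RPL13A, RPL19 and RPL4 lay close to the median member. RPL13A, often used as a qRT-PCR reference, had 27019 and 22126 counts and 0.17 (0.14 to 0.19). RPL19, used likewise, had 13156 and 10420 counts and 0.21 (0.18 to 0.25), and RPL4 had 19321 and 15301 and 0.21 (0.18 to 0.25). RPL8 and RPL13 were further up. RPL8, a protein near the peptidyl transferase centre, had 19480 and 13602 counts and 0.40 (0.36 to 0.43), and RPL13 had 16513 and 10916 and 0.47 (0.44 to 0.51). In the small subunit, RPS9 with 14484 and 12727 counts was at 0.06 (0.03 to 0.10), and RPS16 with 8744 and 5858 counts was at 0.46 (0.41 to 0.50). Hence genes with many counts and narrow intervals were found at both ends of the main group. RPL12, with 177 and 143 counts, was the standard member with the fewest counts, and its interval of -0.14 to 0.51 spans most of that group. The correlation of log2 fold change with mean count was weak over the members with a count in both libraries (Spearman rho -0.181, n = 75). Members not named elsewhere in the text ran from 0.02 for RPS13, with 637 and 577 counts, to 0.45 for RPL30, with 4365 and 2926 counts.

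For the genes that make and serve ribosomes, lists from general knowledge were set beside the members. Of 7 further ribosomal proteins and copies in the table none was called, and all 7 were above 0 with a median of 0.14. GNB2L1, which encodes the scaffold RACK1 of the small subunit, had 42824 and 31677 counts and 0.31 (0.29 to 0.33). The 71 mitochondrial ribosomal protein genes had a median of 0.28, near that of the cytosolic members, and 0 of them were called by the exact binomial test with the fold threshold. The mitochondrial genes summed to 1880.7 CPM in steers and 1882.1 CPM in bulls, scaled to library totals and not to the size factors behind that median. Of the 2 with the most counts, MRPL9 was at -0.21 and MRPS34 at 0.49.

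Genes of ribosome biogenesis stood higher than the ribosomal proteins. Their median over 40 genes was 0.46, 37 were above 0 (background 50.7%), 19 were above 0.5 (background 23.1%) and 2 were called upregulated, a share near the background of 4.66%. The called genes were GAR1, of the RNA-guided pseudouridylation complex, at 1.62 (0.93 to 2.36) from 77 and 23 counts, and BYSL, a small subunit assembly factor, at 1.35 (1.02 to 1.68) from 291 and 105 counts. UBTF, a factor for transcription of ribosomal DNA, had 2251 and 1561 counts, giving a log2 fold change of 0.41 (0.31 to 0.50). MYC had 3475 and 3618 counts and -0.18 (-0.25 to -0.11).

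Initiation factors had a median of 0.19 over 33 genes and elongation factors one of 0.19 over 10 genes, with 0 genes of either list called by the exact binomial test with the fold threshold. EIF1 was at 0.15 (0.10 to 0.21) and EIF4B at -0.20 (-0.25 to -0.15). The elongation factor EEF2 had 64595 and 51885 counts, giving a log2 fold change of 0.19 (0.18 to 0.21). EEF1A1, which delivers aminoacyl-tRNA to the ribosome, had 16147 and 20236 counts and -0.45 (-0.48 to -0.42). EEF1A2, its form in muscle and neurons, had 1346 and 2160 counts and -0.80 (-0.90 to -0.71), beside the mixed muscle markers given above.

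Over 18 mRNAs of other proteins that are known to carry a TOP tract, 10 were above 0, none was called and the median was 0.05, below that of the ribosomal proteins. EEF1A1 and EIF4B are in this list, as is VIM with the most counts, 105796 and 98846, and a log2 fold change of -0.02 (-0.04 to -0.01). Of 15 genes of mTOR, LARP1 and the S6 kinases, RPS6KA1 was the only gene called, with 193 and 701 counts and -1.98 (-2.22 to -1.75). RPS6KA1 is abundant in leukocytes, whose markers were lower in steers as given above, and the part of those cells in its value was not tested. LARP1 had 2340 and 1856 counts and 0.21 (0.12 to 0.30), TSC2 had 1044 and 885 and 0.12 (-0.01 to 0.25), and RPS6KB1, the main kinase of RPS6, had 99 and 91 with an interval from -0.43 to 0.43.

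**Figure D4:**
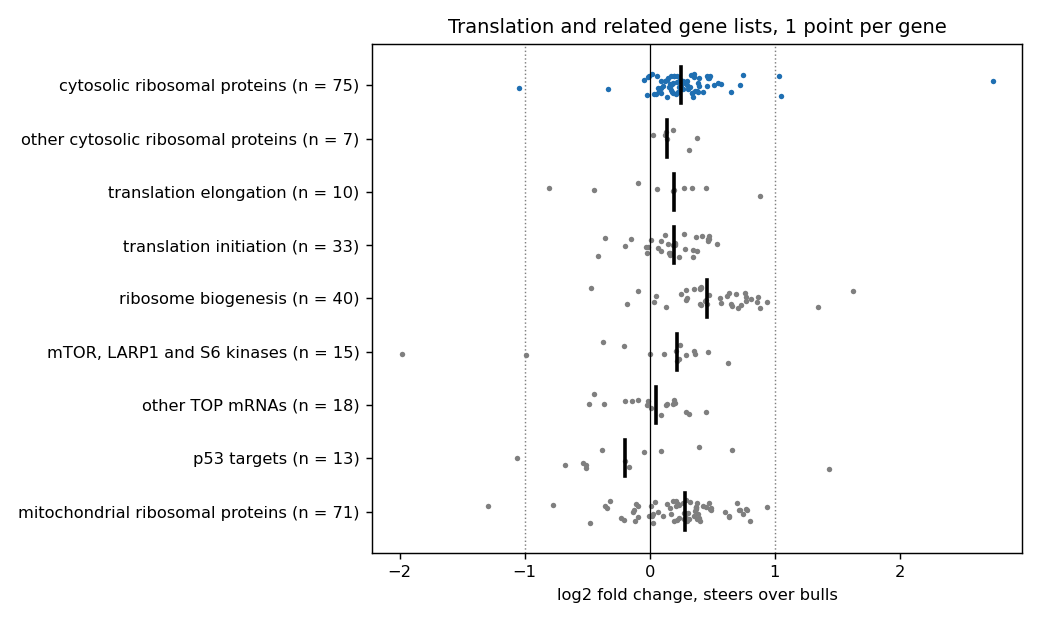
Log2 fold change, steers over bulls (x axis), of the genes of each list (y axis, with the number of genes), 1 point per gene with vertical bars at the medians and dotted lines at the fold threshold. RPL10L, at 0 counts in bulls, is left out. The cytosolic ribosomal protein genes form the tight group around 0.25, and the biogenesis genes lie further to the right, around 0.46.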

How the data were processed

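The mRNA counts, as deposited by the authors, are raw counts per gene without normalization. RNA pooled within a group was sequenced on an Ion Proton, and the reads were filtered and aligned by MapSplice against a cattle assembly according to the paper, whereas the labels list a human genome build with no role stated. Which of these the counts rest on was not tested. The program for counting, its use of strand and the treatment of multiply mapped reads are not given in the sources used here. The small RNA counts hold no ribosomal protein gene and were not used.

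Size factors by the median of ratios set the scale (numpy 2.4.6). The steer and bull count of each gene entered an exact binomial test (scipy 1.17.1) with Benjamini-Hochberg adjustment over all genes with a count. edgeR's quasi-likelihood test needs replicates and could not be fitted. A gene at 0 was called on its bound against 3 counts. A prior of 0.5 counts entered medians. Named in full were called members, the 10 farthest from the median member with at least 50 counts, the 5 with the most counts, paralogs, stalk genes and RPS18, RPS6, RPSA, RPS27A and RPS4X. ACTB, the other copies, the neighbouring genes and some further members were named after their values were seen. Members and lists were chosen with earlier results of these data known. The test was checked on simulated data drawn with counting error only, so the check does not cover variation between pools. Alternatives were 5 scalings, a filter, another prior, assumed variation in edgeR 4.0.16 and no fold threshold. The background of genes with at least 1000 counts was chosen after seeing the data. A few genes are not reported here by name, but they are kept in all counts and medians.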

Additional observations from a re-analysis of the deposited data

How the results depend on the processing

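Scaling set the level of the family. It could not change the order of the members, because each scaling shifts every log2 fold change by the same amount. The median log2 fold change of the ribosomal protein genes was 0.01 with total counts, 0.10 with total counts outside the 10 genes with the most counts, 0.23 with TMM factors and 0.26 with the upper quartile, and it did not move beyond counting error when the members were left out of the size factors, with a prior of 5 counts, with members of at least 50 counts only or without the paralogs. With total counts, RPLP0 turned to -0.15, RPS3 to -0.10, RPS7 to -0.06 and RPSA to -0.03, and outside the 10 genes RPLP0 turned to -0.05 and RPS3 to -0.01. The count called upregulated was 2 with total counts and 2 outside the 10 genes, where RPS25 and RPS27L were lost. It was 1 with edgeR and an assumed biological coefficient of variation of 0.2 and 0 with 0.4, where 0 members were called downregulated in both. With genes of at least 20 counts only, 3 members were called upregulated, since RPL10L was not tested. Without the fold threshold 66 were higher and 2 lower with the size factors, a count that rests on this scaling. The ratio of the shares, 0.9975, was 1.066 outside the 10 genes. Genes with few counts, such as RPL10L, RPL3L and RPS27L, are limited by depth. No paired analysis was possible because the mRNA data hold 1 library per group.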

Other observations

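Targets of p53 were listed because RPS27L is among the genes that p53 activates. Of 13 such genes in the table, 4 were above 0 and the median log2 fold change was -0.20. BAX was called upregulated, with 53 counts in the steer pool and 18 in the bull pool, giving a log2 fold change of 1.44 (0.64 to 2.30). BTG2 was called downregulated, with 442 and 848 counts and -1.06 (-1.23 to -0.89). CDKN1A had 1158 and 809 counts and 0.40 (0.26 to 0.53), and CCNG1 had 991 and 1020 and -0.16 (-0.29 to -0.04).

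Host genes of small nucleolar RNAs, which guide the modification of ribosomal RNA, had few counts and were looked at after other values had been seen. SNHG3 had 99 counts in the steer pool and 34 in the bull pool, giving a log2 fold change of 1.42 (0.84 to 2.03), and SNHG4 had 48 and 12 counts and 1.88 (0.94 to 2.93). Both were called upregulated by the exact binomial test. SNHG12 had 379 and 350 counts, giving a log2 fold change of -0.01 (-0.22 to 0.21).

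Markers of other cell types not given above were as follows. Of 11 adipocyte markers in the table, 2 were called upregulated and FABP4 was called downregulated, with a median of -0.02. Of 6 endothelial markers none was called, with a median of -0.24. The B lymphocyte list held 26 and 99 counts and 2 of its genes were called downregulated, with MS4A1 and CD79B at 0 in both. The erythroid list held 40 and 8 counts and 1 of its genes was called upregulated, with ALAS2 at 0 in both.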
